A study of Homo sapiens with 8 samples.

Results

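The effect of the higher dose of all-trans retinoic acid (ATRA) was examined in trMCF clone 11 by comparing 2 arrays of cells kept in 10 μM ATRA with 2 arrays of the untreated clone, 4 of the 8 arrays of the series. MCF-10F is a spontaneously immortalized, normal-like human breast epithelial line without estrogen receptor, and trMCF cells are MCF-10F cells transformed with estradiol. trMCF clone 11 was grown from 1 ring-cloned colony of them, so a single clone stands for the transformed state. ATRA was given for 26 days with fresh medium every day, and all cells grew in medium with horse serum, epidermal growth factor, insulin, cholera toxin and hydrocortisone. The other 4 arrays, 2 of MCF-10F and 2 of the clone in 1 μM ATRA, entered the fit so that 4 groups of 2 shared 1 estimate of the spread, and their levels are given where they place a result. The study controlled its cultures with the DMSO vehicle, but it is not given for the untreated arrays whether they hold vehicle-treated cells, nor for any group whether its 2 arrays stand for 2 cultures. P-values measure the spread between these arrays, which may be technical.

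Each value is a signal intensity of an Affymetrix U133 Plus 2.0 probe set that the authors had scaled between arrays, and pairs of signals are given in the order of replicate 1 and replicate 2. Each gene was read at 1 probe set, the brightest on average of those assigned to that gene alone, which gave 19775 genes from 54613 probe sets. A change is the difference between the 2 group means on the log2 scale. Rose and fell are used only where the limma adjusted p, corrected over all 54613 probe sets by Benjamini-Hochberg, was under 0.05. A signal under 16 lies near background, and the size of a change that starts or ends there is uncertain. Signals of different genes come from different probes and were not compared with each other. The cells carried an epithelial profile, with signals of 5692 and 5811 (untreated) and 4472 and 4889 (10 μM) for E-cadherin (CDH1) and of 8081 and 7575, and 7317 and 6832, for the keratin KRT18.

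The 2 untreated arrays were the weak side of the comparison. Their log2 values lay 0.568 apart in root mean square, and 7.71% of their probe sets differed by more than 2-fold, against 0.245 and 0.211% for the 2 arrays at 10 μM. The labels call the disease state of untreated replicate 1 normal although its title names the transformed clone, and the title decided its group. Results are therefore given with and without each array. A fit that leaves 1 array in a group takes no spread from that group. Leaving out an untreated array thus drops the wide untreated spread from the error, so passing there does not guard against it. Leaving out an array at 10 μM keeps that spread and drops the tight pair.

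Retinoic acid is made from retinol in 2 steps of oxidation by retinol dehydrogenases and retinaldehyde dehydrogenases. It binds retinoic acid receptors (RARA, RARB, RARG), which pair with retinoid X receptors (RXRA, RXRB, RXRG) on direct repeats of a short site in DNA. It is degraded by the CYP26 enzymes, whose genes are themselves induced by retinoids, and in epithelia it is known to hold back squamous differentiation.

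Among genes of the retinoid lists, the 300 bases around the start sites (250 before to 50 after, from RefSeq, build GRCh38.p14) held the classical element DR5, a direct repeat with 5 bases between its units, in CYP26A1 and RARB. A unit was AGGTCA or one of its variants, which were GGGTCA as well as AGTTCA and also GGTTCA, on either strand. Repeats with 1 base (DR1) or 2 bases (DR2) between the units were searched too, and stood in 0.131% and 0.0399% of all windows. They were found in no gene of the retinoid lists that was looked up. DR5 stood in 31 of 35116 such windows of all genes (0.0883%), in 1 of 861 windows of genes that rose (0.116%) and in 0 of 978 windows of genes that fell. These shares cover all windows, whereas the look-up by gene, for DR5 too, left out those of 1 chromosome. The 2 elements are printed in capitals with 30 bases on either side, because CYP26A1 rose in these arrays and RARB did not pass. The difference between the 2 genes was not tested. The CYP26A1 stretch is chr10:93073773-93073849 on the plus strand, with the element on the opposite strand 90 to 74 bases before the start site. The RARB stretch is chr3:25428180-25428256 on the plus strand, with the element 53 to 37 bases before the start site.
CYP26A1: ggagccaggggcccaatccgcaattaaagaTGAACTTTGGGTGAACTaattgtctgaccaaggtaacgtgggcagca
RARB: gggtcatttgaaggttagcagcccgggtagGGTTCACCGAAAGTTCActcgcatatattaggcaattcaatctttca
CYP26A1, which degrades retinoic acid, read 30.5 and 22.4 in the untreated clone and 68.9 and 58.4 at 10 μM. The 2 groups did not overlap, although all 4 signals were low, and CYP26A1 rose by 1.28 (SE 0.19, adjusted p = 0.014). RARB read 43.5 and 26.4 in the untreated clone and 42.9 and 36.3 at 10 μM, so that its arrays overlapped, with a change of 0.22 (SE 0.24, adjusted p = 0.713). A match of letters does not show a site in use, and binding was not measured.

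CYP26B1, the second retinoic acid hydroxylase measured, had a stronger signal, with 211.4 and 273.0 in the untreated clone and 1378 and 1879 at 10 μM. It rose by 2.74 (SE 0.21, adjusted p = 0.00261) and lay 1.93 above MCF-10F (adjusted p = 0.0091). Enzymes of synthesis rose as well. ALDH1A3, a retinaldehyde dehydrogenase, read 1630 and 1049 without and 7575 and 5524 with ATRA, and rose by 2.31 (SE 0.26, adjusted p = 0.00735). DHRS9, a retinol dehydrogenase, read 77.6 and 102.3 without and 615.7 and 488.0 with ATRA, and rose by 2.62 (SE 0.33, adjusted p = 0.00975). RDH10, which makes the first oxidation step in most tissues, read 145.6 and 209.0 without and 377.6 and 398.0 with ATRA, and rose by 1.15 (adjusted p = 0.0288). In these 4 enzymes every treated array exceeded every untreated one.

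Of the known targets, NR2F1, an orphan nuclear receptor induced by retinoids, rose by 2.91 (SE 0.31, adjusted p = 0.00622), from 50.3 and 85.7 to 446.1 and 545.9. TGM2, tissue transglutaminase, rose by 2.41 (adjusted p = 0.0198), from 72.5 and 44.2 to 316.3 and 284.9. NRIP1, a ligand-dependent co-repressor of nuclear receptors, rose by 1.73 (adjusted p = 0.0204), from 714.8 and 1138 to 3201 and 2787. Other genes often used as retinoid markers did not pass. The retinal reductase DHRS3 read 1387 and 699.6 without and 2368 and 2397 with ATRA (change 1.27, adjusted p = 0.138), and RARRES1 read 7750 and 4052 without and 13394 and 14850 with ATRA (change 1.33, adjusted p = 0.263). In both the treated arrays lay above the untreated ones, whose own values lay far apart. STRA6, a retinol transporter, had a change of 1.31 (adjusted p = 0.0539), PLAAT4 (RARRES3) one of 1.70 (adjusted p = 0.165) and CRABP2, a cytoplasmic retinoic acid binding protein, one of -1.02 (adjusted p = 0.119).

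None of the 6 receptors passed. RXRA read 778.5 and 801.7 without and 387.5 and 511.4 with ATRA (change -0.83, adjusted p = 0.051), and RXRB 590.3 and 730.8 without and 311.6 and 507.0 with ATRA (change -0.72, adjusted p = 0.147). RARA, RARG and RXRG had changes of -0.08, -0.03 and -0.01, each with overlapping arrays, and RXRG read between 14.4 and 18.6 on all 4 arrays. The direction of these 3 and of RARB changed when 1 array was left out. Of 41 retinoid target genes measured, 6 rose and 1 fell, and of 37 genes of retinoid metabolism and receptors 5 rose and 0 fell, where 3.94% of all 19775 genes rose and 3.89% fell. Besides those above, MEIS2, a homeobox gene, rose by 1.98 (adjusted p = 0.0203) and LAMB1 fell. The medians of the 2 lists were 0.11 and 0.01, beside -0.01 for all genes. Without untreated replicate 2, 9 members of either list rose and 3 fell, and without replicate 1 the targets had 8 rises and 3 falls and the metabolism list 5 rises and 1 fall. The median of the metabolism list was then -0.15 and 0.18. Of the 9 risers described here, RDH10 did not pass without untreated replicate 1 (adjusted p = 0.0539). CYP26B1 passed when either of the 10 μM arrays was left out, and the other 8 then had adjusted p-values from 0.058 to 0.187.

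**Figure D1:**
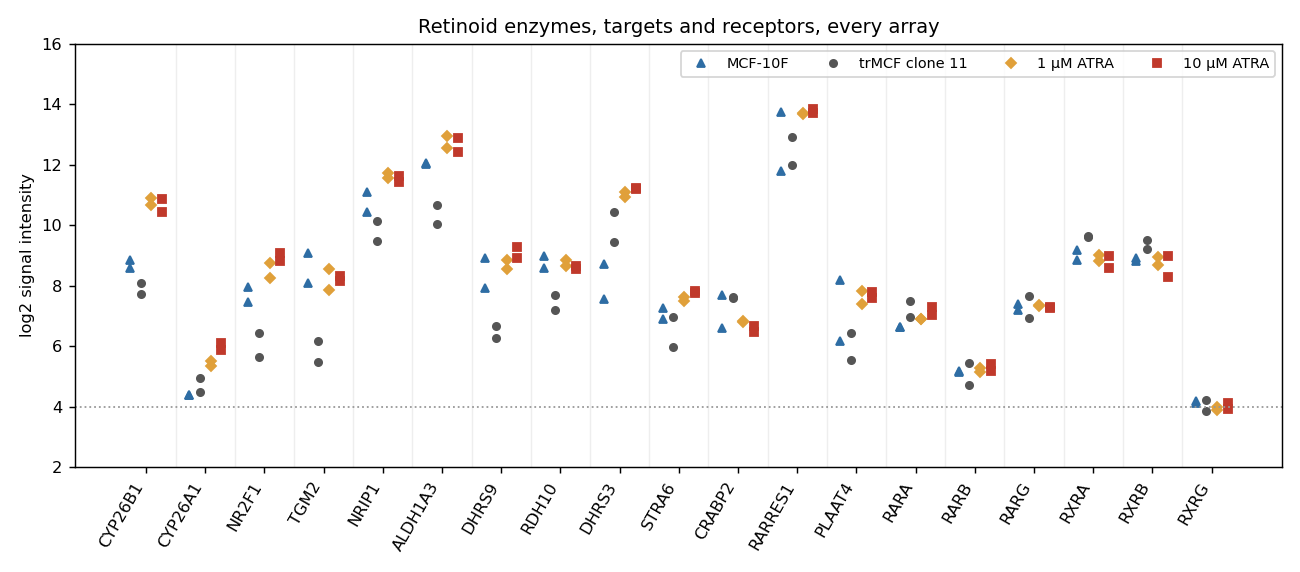
Log2 signal intensity (vertical axis) of 19 retinoid enzymes, targets and receptors on every array, with 1 symbol per array for MCF-10F, trMCF clone 11, 1 μM ATRA and 10 μM ATRA, and a dotted line at a signal of 16. Both arrays at 10 μM lay above both untreated arrays from CYP26B1 to STRA6, whereas the receptors on the right shifted by 0.83 or less.

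Transcripts that host microRNAs were among the falls, and because microRNAs act through a short seed their mature sequences are given here. The arrays measured the host transcripts and not the mature microRNAs. They were found by symbol (MIR followed by a number and HG) after the values had been seen. In all 35 such transcripts were measured, 4 fell and 0 rose, where 3.89% of all genes fell and 3.94% rose, and 10 of the 35 had mean signals under 16 in both groups. The sequences are from RefSeq (GRCh38.p14), with the seed, bases 2 to 8, in capitals, and no 2 of them share a seed.
hsa-miR-205-5p: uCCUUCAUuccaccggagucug
hsa-miR-200c-3p: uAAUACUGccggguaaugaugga
hsa-miR-100-5p: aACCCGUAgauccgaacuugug
hsa-miR-210-3p: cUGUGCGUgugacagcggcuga
MIR205HG, host of miR-205, a microRNA of basal epithelial cells (chr1:209432166-209432187, plus strand), read 3496 and 2848 in the untreated clone and 99.4 and 127.2 at 10 μM. It fell by 4.81 on the log2 scale (SE 0.18, adjusted p = 0.000551), an adjusted p shared with NRAD1 and DSC3 and smaller than that of every other gene. MIR200CHG, host of the epithelial miR-200c (chr12:6963742-6963764, plus strand), read 824.4 and 625.8 without and 182.9 and 152.1 with ATRA, and fell by 2.11 (adjusted p = 0.0117). MIR100HG, host of miR-100 (chr11:122152275-122152296, minus strand), fell by 1.85 (adjusted p = 0.0165), from 364.6 and 600.6 to 116.3 and 144.7. MIR210HG, host of the hypoxia-induced miR-210 (chr11:568112-568133, minus strand), fell by 1.29 (adjusted p = 0.0246), from 220.8 and 238.0 to 87.7 and 100.7. In all 4 the groups were apart on every array, and all 4 passed when either untreated array was left out. MIR205HG also passed when either array at 10 μM was left out, and the other 3 then had adjusted p-values from 0.103 to 0.189.

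Over all genes, 780 rose (3.94%) and 769 fell (3.89%) at 10 μM, 7.83% in all. In 501 of the rises (2.53% of genes) and 512 of the falls (2.59%), together 5.12% of genes, the call was also made when either untreated array was left out, and no called gene changed direction in those 2 fits. Those fits take no spread from the untreated group, so a call kept in them does not guard against that spread. Changes over 4-fold were found in 114 genes that rose and 140 that fell. Leaving out untreated replicate 2 raised the counts to 2450 (12.4%) and 1573 (7.95%), and leaving out replicate 1 gave 667 (3.37%) and 806 (4.08%). Far fewer genes passed when an array at 10 μM was left out, in fits whose error drops the tight pair and keeps the untreated pair. Those counts therefore do not measure how far the results rest on the arrays at 10 μM. With the 4 arrays alone in the fit 194 rose and 212 fell. Arrays of the 2 groups did not overlap for 24.6% of genes that were higher and 24.1% that were lower, so that an absence of overlap between 2 arrays and 2 arrays carries little weight alone.

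**Figure D2:**
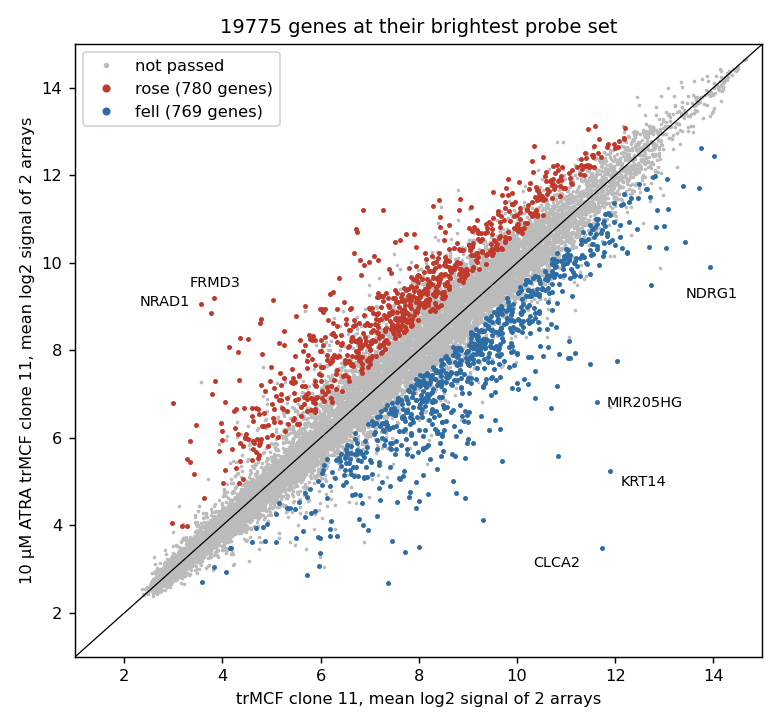
Mean log2 signal of each of 19775 genes in the untreated clone (horizontal axis, 2 arrays) and at 10 μM ATRA (vertical axis, 2 arrays), with the diagonal as no change. The 780 genes that rose and the 769 that fell lie on both sides over the whole range of signal, and CLCA2 and KRT14 lie farthest below the diagonal.

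In all, 20 rises and 22 falls held in all 4 fits that left out 1 of the 4 arrays. The rises were NRAD1, FRMD3, STS, PAPPA, CFAP95, PCSK5, TLR3, BTC, IFIT3, ARHGAP26, OTUB2, KRT13, TMEM133, CYP26B1, GALNT7, ADAM12, CST6, SH3TC2, KRT80 and MTERF2. The falls were CLCA2, DSC3, MIR205HG, TPRG1, BLNK, RAB38, MIR205, PPP1R3C, THBS2, DUSP5P1, TENT5C, BFSP1, DCD, SPATA17, NEURL1B, FSIP1, PPIL6, SLC6A15, FLCN, GJA3, ARG2 and PRKAB2. MIR205 is the microRNA gene hosted by MIR205HG, so these entries may share signal, and neither measures the mature microRNA. FLCN, folliculin, a regulator of nutrient sensing that acts with AMPK, read 253.0 and 253.6 without and 48.1 and 55.3 with ATRA, and fell by 2.30 on the log2 scale (adjusted p = 0.0016). PRKAB2, a regulatory subunit of AMPK, read 1001 and 1047 without and 235.0 and 252.4 with ATRA, and fell by 2.07 (adjusted p = 0.0016). PPP1R3C, which targets a phosphatase to glycogen, fell by 3.45 (adjusted p = 0.0034), from 1292 and 1359 to 170.2 and 86.2. In these 3 the untreated arrays lay close together. Like all names in the lists above that stand in no rule of the processing, they were chosen after their values were seen.

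The 12 largest rises ranged from 3.87 to 5.50. NRAD1, a long noncoding RNA known to be under the control of retinoic acid through ALDH1A3, read 14.4 and 9.77 in the untreated clone and 503.1 and 568.9 at 10 μM, a rise of 5.50 (SE 0.23, adjusted p = 0.000551). MCF-10F also lacked this signal, with a mean of 15.5, and the level at 10 μM lay 5.11 above it (adjusted p = 0.000423). FRMD3, a protein of the band 4.1 family, rose by 5.37 (adjusted p = 0.00112), from 15.3 and 13.3 to 636.6 and 547.7. STS, steroid sulfatase, which frees estrogens and androgens from their sulfates, rose by 5.08 (adjusted p = 0.00243), from 10.5 and 17.7 to 457.2 and 466.1. The untreated means of these 3 genes lay under 16, and in each the signal went from background to a clear level on both treated arrays.

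PSCA, a surface antigen of prostate and bladder epithelium, read 154.6 and 87.3 without and 2048 and 2699 with ATRA (rise 4.34, adjusted p = 0.0036). PAPPA, a protease that frees insulin-like growth factor from its binding proteins, read 30.6 and 35.4 without and 585.8 and 557.5 with ATRA (rise 4.12, adjusted p = 0.00112), and 7 of its 11 probe sets rose. NRP2, neuropilin 2, a receptor for semaphorins and VEGF-C, read 86.2 and 129.9 without and 1690 and 1814 with ATRA (rise 4.05, adjusted p = 0.0041), with 9 of 11 probe sets up. For PAPPA and NRP2 the call thus did not hang on 1 probe set. GPAT3, which makes the first acylation in triglyceride synthesis, rose by 3.96 (from 76.0 and 148.7 to 1903 and 1441), ANO1, a calcium-activated chloride channel, by 3.95 (from 26.6 and 11.7 to 244.9 and 302.4), and AKAP12, a scaffold for protein kinases A and C, by 3.94 (from 34.2 and 22.3 to 491.3 and 364.7).

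TIGAR, a fructose-bisphosphatase that lowers glycolytic flux, rose by 3.93, from 12.3 and 34.2 to 363.3 and 270.0. UCA1, a long noncoding RNA of bladder carcinoma, rose by 3.93, from 257.4 and 93.7 to 2634 and 2117. PRMT6, an arginine methyltransferase, rose by 3.87, from 11.8 and 62.8 to 410.8 and 384.0. In these 3 the untreated arrays lay far apart, and the adjusted p-values were 0.00662 for TIGAR, 0.026 for UCA1 and 0.022 for PRMT6. All 12 passed without either untreated array, as their selection required, and all but PRMT6 (0.0962) passed with the 4 arrays alone. NRAD1, FRMD3, STS and PAPPA passed when either array at 10 μM was left out, and the other 8 then had adjusted p-values from 0.0523 to 0.188.

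The 12 largest falls ranged from -4.03 to -8.23. CLCA2, a chloride channel regulator of stratified epithelia, read 2688 and 4250 in the untreated clone and 10.9 and 11.7 at 10 μM, and fell by 8.23 on the log2 scale (SE 0.52, adjusted p = 0.0016). All 4 of its probe sets fell, and its level lay below that of MCF-10F, whose mean was 110.6 (difference -3.29, adjusted p = 0.0307). KRT14, the keratin of basal cells, fell by 6.66 (SE 0.79, adjusted p = 0.00836), from 3230 and 4549 to 42.3 and 34.0, and DSC3, a desmosomal cadherin of basal layers, fell by 5.25 (SE 0.22, adjusted p = 0.000551), from 1906 and 1745 to 48.7 and 47.3. Both were below MCF-10F as well (differences -6.52, adjusted p = 0.0127, and -3.50, adjusted p = 0.00114).

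KRT16, a keratin of activated keratinocytes, fell by 4.29 (adjusted p = 0.00325), from 4346 and 4086 to 213.3 and 216.3. NDRG1, a stress gene induced by hypoxia and differentiation, fell by 4.03 (adjusted p = 0.0121), from 15189 and 16117 to 1007 and 907.6. RAB38, a small GTPase of lysosome-related organelles, fell by 4.20 (adjusted p = 0.00124), from 698.2 and 972.7 to 40.3 and 49.7. Several of the rest are better known from immune cells or melanocytes. CLEC2B, a lectin ligand of lymphocyte receptors, fell by 5.19 (929.7 and 430.3 to 18.1 and 16.6), BLNK, the B-cell linker, fell by 4.32 (200 and 219.3 to 11.2 and 9.75), and VAV3, a guanine nucleotide exchange factor, fell by 4.31 (304.4 and 800.3 to 30.7 and 20.2). GPNMB, a melanosomal and lysosomal glycoprotein, fell by 4.70 (264.2 and 105.0 to 6.59 and 6.25), and TPRG1 fell by 4.50 (216.7 and 302.3 to 11.8 and 10.8). CLCA2, GPNMB, TPRG1 and BLNK ended under 16. All 12 passed with the 4 arrays alone (highest adjusted p = 0.0388). CLCA2, DSC3, MIR205HG, TPRG1, BLNK and RAB38 passed when either array at 10 μM was left out, and the other 6 then had adjusted p-values from 0.0499 to 0.115.

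**Figure D3:**
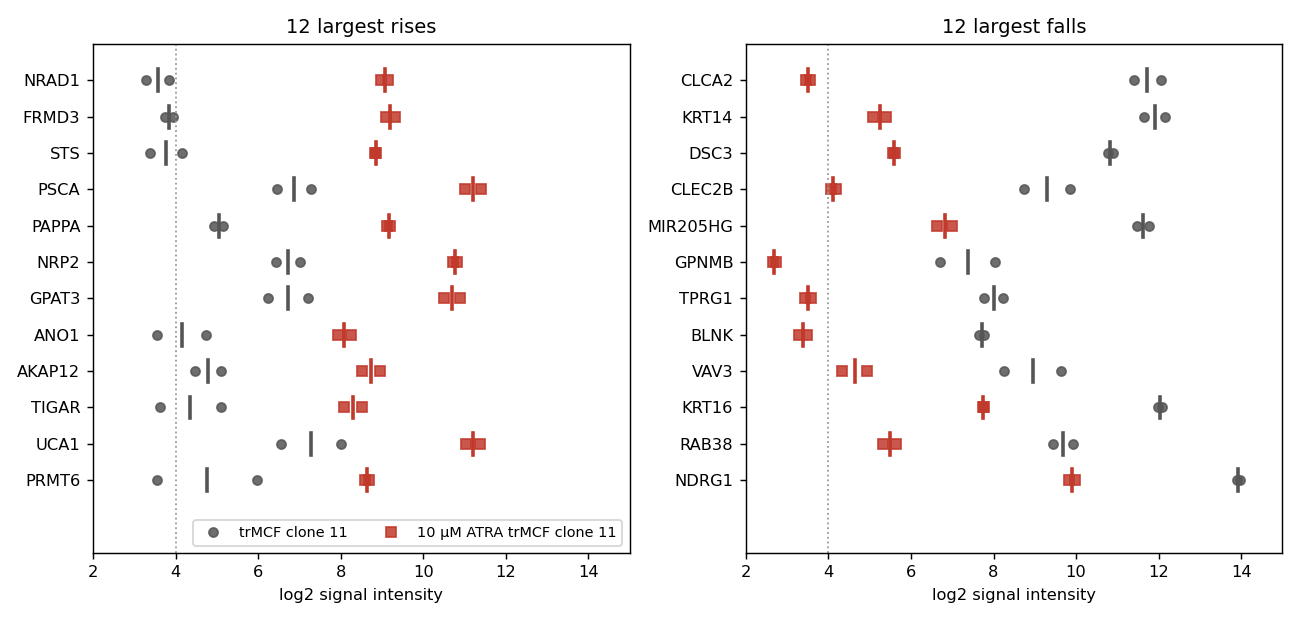
Log2 signal intensity (horizontal axis) of the 12 largest rises (left) and 12 largest falls (right), with 1 point per array (grey circles for the untreated clone, red squares for 10 μM ATRA), a short bar at each group mean and a dotted line at a signal of 16. The 2 groups are apart for every gene shown, while ANO1, TIGAR, UCA1, PRMT6, CLEC2B, GPNMB and VAV3 have untreated arrays that differ by over 2-fold.

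Gene groups were then read through 37 lists of 9 to 67 measured genes, and each count of a list is set against the 3.94% of all genes that rose and the 3.89% that fell. Lists and members were chosen with earlier results of these data known, so the shares and their order describe the lists and test nothing. The lists farthest from these shares were DNA replication (18 of 53 rose) and interferon-stimulated genes (22 of 65 rose) upwards, and hypoxia and glycolysis (18 of 44 fell), growth arrest (12 of 42 fell), glucocorticoid response (6 of 24 fell) and basal mammary genes (5 of 22 fell) downwards. When an array at 10 μM was left out, every list had 0 to 3 members called in either direction. Leaving out 1 untreated array moved the count of rises or of falls by over 1.5 times in 32 of the 37 lists, and in 15 lists the median did not keep its sign. The counts so moved are given with each list.

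**Figure D4:**
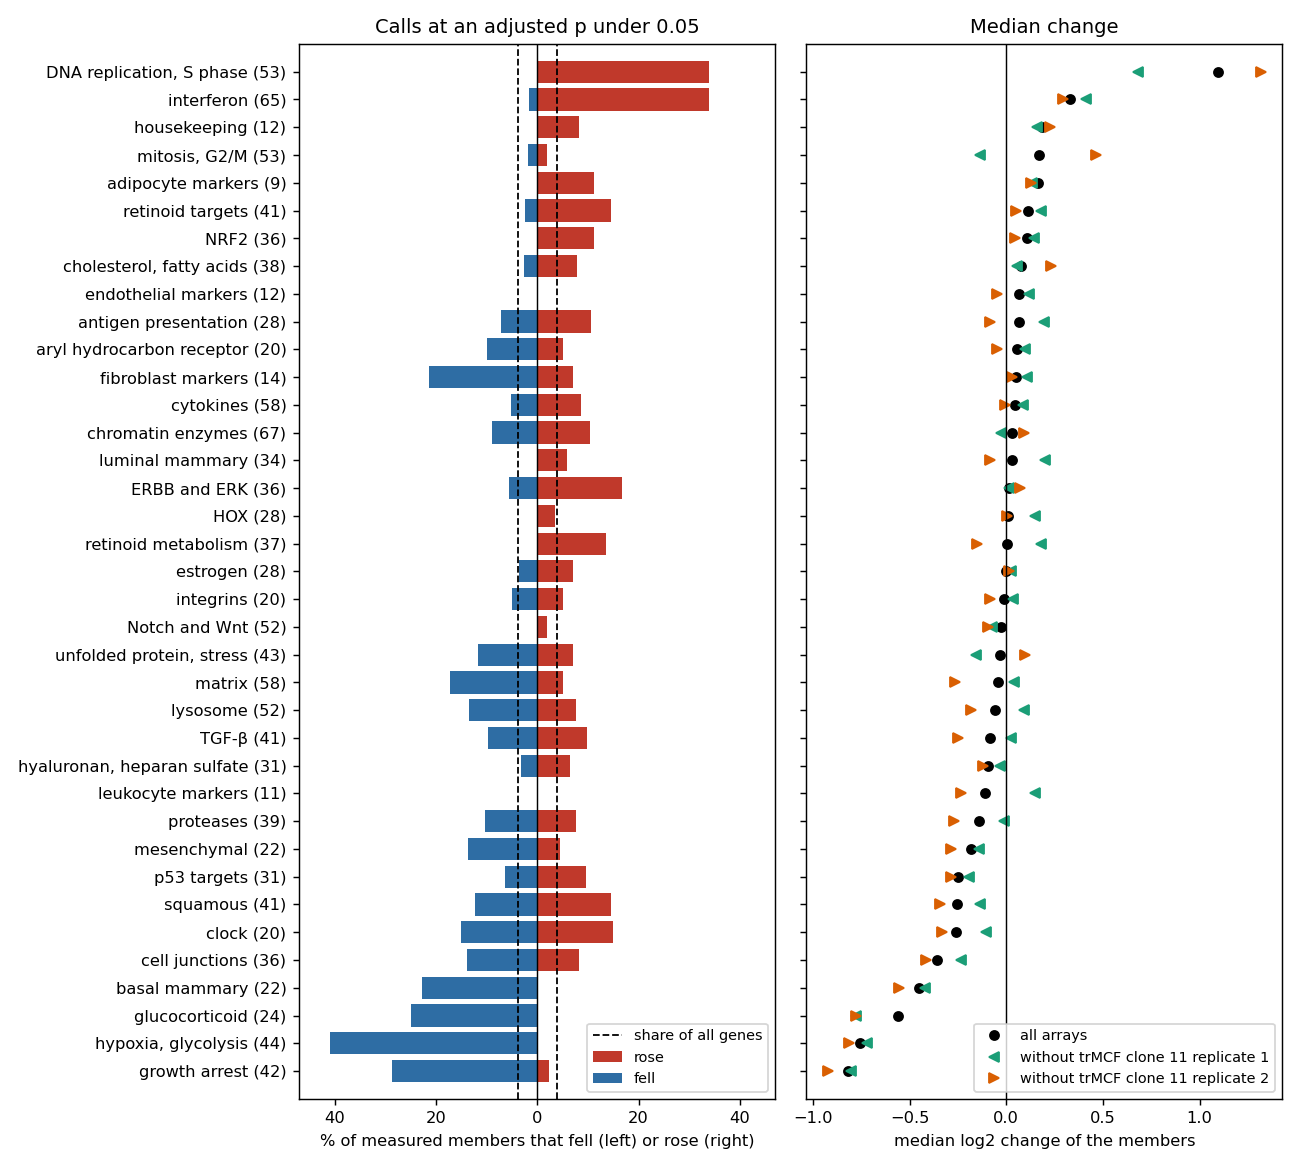
Share of the measured members of each of 37 lists that fell (blue, left) or rose (red, right), with dashed lines at the shares of all genes (3.89% and 3.94%), and the median log2 change of each list with all arrays (black) and without 1 untreated array (triangles). The number of measured members stands beside each name, and in 15 lists, mitosis, matrix and luminal genes among them, the 3 medians do not lie on the same side of 0.

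Many genes of DNA replication rose. Of 53 measured, 18 rose and 0 fell, with a median change of 1.09. MCM10, which loads onto the replicative helicase at origins, read 54.3 and 128.6 in the untreated clone and 868.1 and 751.6 at 10 μM, and rose by 3.27 (SE 0.48, adjusted p = 0.014). UHRF1, which guides maintenance methylation of newly made DNA, rose by 2.99 (adjusted p = 0.0118), from 229.7 and 428.9 to 2465 and 2541. MCM3, a subunit of the helicase itself, rose by 2.21 (adjusted p = 0.0142), from 407.0 and 708.2 to 2526 and 2432, and its partners MCM2, MCM4, MCM5 and MCM6 were among the 18. CCNE1, cyclin E1, which drives entry into S phase, rose by 1.62 (adjusted p = 0.00741), from 234.6 and 196.6 to 667.8 and 654.6. The other risers were CCNE2, CHAF1A, E2F2, CDC45, FEN1, DTL, RRM2, GINS1, GINS3 and POLA1.

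The treated arrays stood above both untreated arrays in all 4 of the genes described, while untreated replicate 1 was the lower of the 2 in MCM10, UHRF1 and MCM3. Over the list the summed signal was 31214 and 50039 in the untreated clone against 77589 and 76447 at 10 μM, and 12 of the 18 rises held without either untreated array. Without replicate 1 the median was 0.68 and 13 members rose, and without replicate 2 the median was 1.32 and 38 rose. CCND1, cyclin D1, a G1 cyclin outside that list, read 223.4 and 151.4 without and 1496 and 1352 with ATRA, and rose by 2.95 (adjusted p = 0.0131).

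Few mitotic genes passed. Of 53 measured, 1 rose and 1 fell, with a median change of 0.17 that turned to -0.14 without untreated replicate 1 and was 0.46 without replicate 2, when 15 rose and 2 fell. Without replicate 1 none rose. CENPM, a centromere protein, rose by 1.41 (adjusted p = 0.0271, 0.0577 without untreated replicate 1), and NEK2, a centrosomal kinase, fell by 0.98 on the log2 scale (adjusted p = 0.0222), from 2798 and 3294 to 1564 and 1525. The proliferation marker MKI67 read 1122 and 2369 in the untreated clone and 1996 and 2046 at 10 μM, so that the treated values fell between the untreated ones (change 0.31, adjusted p = 0.712, and -0.23 without untreated replicate 1). None of the 7 cell cycle genes described with a call passed when an array at 10 μM was left out, with adjusted p-values from 0.08 to 0.182.

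Genes that restrain growth were among the falls. Of 42 growth-arrest genes measured, many of them targets of FOXO factors, 12 fell and 1 rose, with a median of -0.82. TXNIP, an inhibitor of thioredoxin and of glucose uptake, read 12213 and 9842 in the untreated clone and 1225 and 1674 at 10 μM, and fell by 2.94 on the log2 scale (SE 0.27, adjusted p = 0.00377). KLF11, a repressor induced by TGF-β, fell by 2.06 (adjusted p = 0.0115), from 1205 and 872.1 to 286.3 and 210.3. PDCD4, which inhibits translation initiation, fell by 1.32 (adjusted p = 0.00483), from 114.8 and 121.7 to 48.9 and 45.6. FOXO1 and FOXO3 themselves were among the 12. The single member that rose, RBL1 (p107), is a pocket protein whose own gene is a target of E2F factors (rise 2.08, adjusted p = 0.0437, 0.0555 without untreated replicate 1). The count of falls was 7 without untreated replicate 1, when none rose, and 15 without replicate 2, and 6 of the 12 held when either was left out. TXNIP and TSC22D3 passed without replicate 2 at 10 μM and no member passed without replicate 1.

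**Figure D5:**
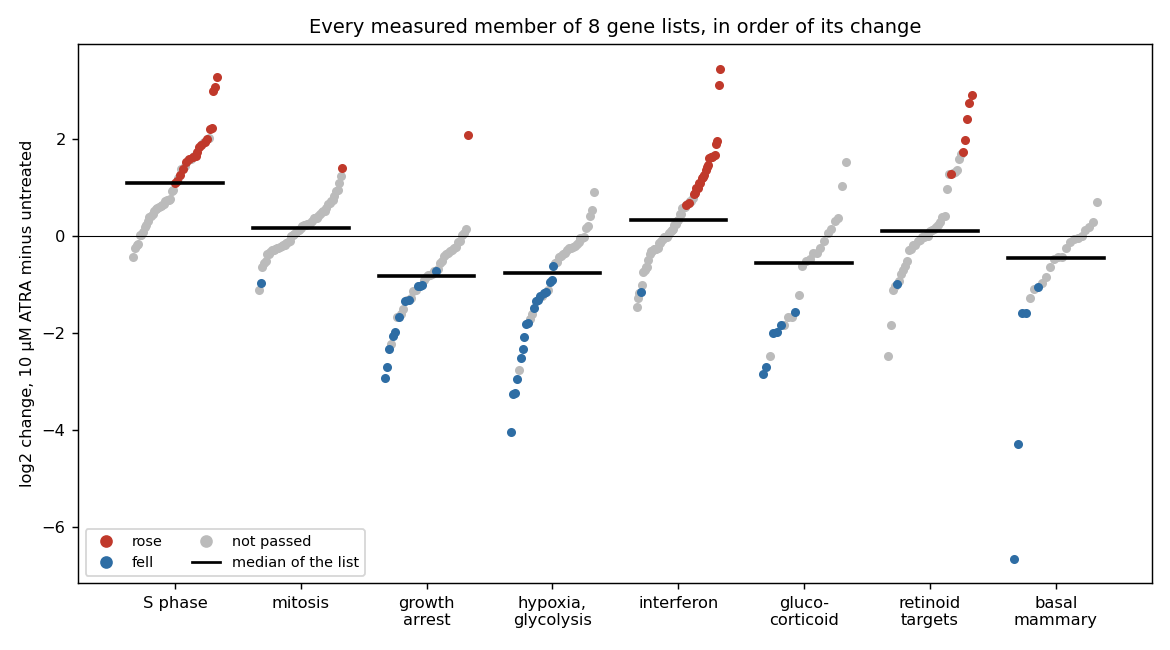
Log2 change at 10 μM against the untreated clone (vertical axis) of every measured member of 8 gene lists, ordered within each list and coloured by its call, with the median as a black bar. The S phase list lies mostly above 0 (median 1.09), the mitosis list around it (median 0.17), and growth arrest (median -0.82) and hypoxia (median -0.76) mostly below.

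Of the hypoxia response and glycolysis genes, most of them targets of HIF-1, 18 of 44 fell and 0 rose, with a median of -0.76. Besides NDRG1, the lipid droplet protein HILPDA fell by 3.26 on the log2 scale (SE 0.33, adjusted p = 0.00547), from 2955 and 1852 to 223.4 and 267.6. LOX, which cross-links collagen and is induced by hypoxia, fell by 3.24 (adjusted p = 0.0109), from 5306 and 8703 to 827.0 and 627.3. ALDOC, an aldolase of glycolysis, fell by 2.51 (adjusted p = 0.00535), from 736.0 and 772.5 to 154.8 and 114.0, and ANKRD37 fell by 2.08 (adjusted p = 0.00564), from 1545 and 1763 to 387.7 and 391.2. Treated and untreated arrays were apart in each of these genes, and the 2 untreated arrays lay close to each other in NDRG1, ALDOC and ANKRD37.

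The other members that fell were PFKFB3, PFKFB4, BNIP3, ENO2, ERO1A, P4HA1, KDM3A, KDM4B, HK1, HK2, SLC2A1, MXI1 and CA12, which include the glucose transporter GLUT1 (SLC2A1) and the hexokinases HK1 and HK2. CA12, a carbonic anhydrase, fell by 2.94 (adjusted p = 0.0437), but did not pass without untreated replicate 1 (0.0882) or replicate 2 (0.0585). Of the 18, 9 held when either untreated array was left out, 12 fell without replicate 1 and 17 without replicate 2 (when 2 rose), and 12 fell with the 4 arrays alone. With either array at 10 μM left out no member passed, and the 6 genes with values here had adjusted p-values from 0.0533 to 0.243. The oxygen supply and density of the cultures are not given in the sources used here.

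Several genes of the glucocorticoid response fell, in cells whose medium held hydrocortisone. Of 24 measured, 6 fell and 0 rose, with a median of -0.56. The 18 that did not pass included FKBP5 (change -0.25, adjusted p = 0.568) and DUSP1 (-0.36, adjusted p = 0.533). Among them were also positive changes in HSD11B2 (1.54, adjusted p = 0.0662) and ANGPTL4 (1.02, adjusted p = 0.113). Negative ones were found in ZBTB16 (-2.47, adjusted p = 0.066) and ERRFI1 (-1.68, adjusted p = 0.0719). TSC22D3 (GILZ), the best-known anti-inflammatory target of the glucocorticoid receptor, read 9061 and 7798 in the untreated clone and 1083 and 1529 at 10 μM, and fell by 2.71 on the log2 scale (SE 0.25, adjusted p = 0.00417). SGK1, a kinase of sodium transport, fell by 2.84 (adjusted p = 0.0316), from 1134 and 4004 to 349.1 and 254.6, and the transcription factor KLF9 fell by 1.97 (adjusted p = 0.0353, 0.0597 without untreated replicate 1), from 1259 and 575.5 to 226.6 and 208.5. In SGK1 and KLF9 the untreated arrays differed by over 2-fold.

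The other 3 are metallothioneins, which bind zinc and copper. MT1X fell by 2.01 (adjusted p = 0.00857), from 12729 and 14171 to 4204 and 2661, MT1E fell by 1.84 (adjusted p = 0.0115) and MT2A fell by 1.57 (adjusted p = 0.0112). These genes are near-identical in sequence, so their probes may share signal and their values are not independent. MT1X alone passed without replicate 1 at 10 μM (0.0437) and TSC22D3 alone without replicate 2 (0.0463).

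Interferon-stimulated genes and sensors of viral RNA were the list with the most rises when all arrays were used. Of 65 measured, 22 rose and 1 fell, with a median of 0.33, while the summed signal of the list was 31920 and 26637 in the untreated clone and 25907 and 27253 at 10 μM. TLR3, the endosomal sensor of double-stranded RNA, read 14.3 and 14.5 in the untreated clone and 155.2 and 161.3 at 10 μM, and rose by 3.46 (SE 0.23, adjusted p = 0.00179). IFIT3, an effector against viral RNA, rose by 3.11 (adjusted p = 0.00239), from 30.1 and 26.4 to 281.6 and 209.5. IFI35 rose by 1.90 (adjusted p = 0.008), from 46.9 and 37.5 to 144.7 and 168.9, and APOL6, an apolipoprotein of cell death, by 1.62 (adjusted p = 0.00588), from 79.3 and 75.4 to 240.0 and 236.9. For these 4 the pairs of arrays were tight on both sides.

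Members with a smaller change included the receptor chain IFNAR1 (1.27), the transcription factor IRF1 (1.22) and the nucleotide hydrolase SAMHD1 (1.35), all of which rose. The 42 members that did not pass included ISG15 (0.59), OAS1 (0.72), MX1 (0.46) and RSAD2 (-0.02). IFITM2 read 4804 and 2134 without and 1300 and 1355 with ATRA (change -1.27, adjusted p = 0.0864). IFITM3 read 5981 and 2667 without and 2018 and 1959 with ATRA (change -1.01, adjusted p = 0.166). Neither passed. ISG20, an exonuclease, fell by 1.16 on the log2 scale (adjusted p = 0.049, 0.105 without untreated replicate 1 and 0.0517 without replicate 2). Of the 22 rises 16 held when either untreated array was left out, 20 rose without replicate 1 (0 fell) and 19 without replicate 2 (5 fell). TLR3 and IFIT3 passed when either array at 10 μM was left out, and APOL6 and IFI35 then had adjusted p-values from 0.0699 to 0.089. Of 28 genes of antigen presentation 3 rose and 2 fell. The immunoproteasome subunits PSMB9 and PSMB10 rose by 1.10 and 1.03, the peptide transporter TAP2 rose by 0.99, and HLA-E and the chaperone PDIA3 fell by 1.23 and 1.46 on the log2 scale. TAP2 (0.0521) and PDIA3 (0.0633) did not pass without untreated replicate 1, nor PSMB9 (0.0652) without replicate 2. The falls in this list numbered 1 without replicate 1 and 4 without replicate 2.

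Among 58 cytokines, chemokines and their receptors 5 rose and 3 fell (7 fell without untreated replicate 2). TNFAIP2, a target of TNF and of retinoic acid in leukaemia cells, rose by 3.04 (SE 0.27, adjusted p = 0.00374), from 403.2 and 286.2 to 2676 and 2905. TLR4, the sensor of bacterial lipopolysaccharide, rose by 2.58 (adjusted p = 0.00345), from 8.65 and 11.9 to 58.7 and 62.5, with all 4 of its probe sets up. IL18, an epithelial cytokine, fell by 1.11 on the log2 scale (adjusted p = 0.0209), from 3268 and 2736 to 1270 and 1505. When an array at 10 μM was left out none of these 3 passed, nor did the 5 antigen presentation genes (adjusted p-values from 0.0554 to 0.259).

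The keratins KRT14 and KRT16 led the falls among basal mammary genes. Of 22 measured genes of basal, myoepithelial-type mammary cells 5 fell and 0 rose, with a median of -0.45, and 9 fell without untreated replicate 2. Beside KRT14 and KRT16 these were ITGA6, the laminin receptor subunit α6 (fell by 1.05 on the log2 scale, adjusted p = 0.0194, from 3538 and 4625 to 2111 and 1819), ACTA2, smooth muscle actin (fell by 1.59, adjusted p = 0.0314), and TRIM29 (fell by 1.60, adjusted p = 0.0385). KRT5, the partner of KRT14, read 6037 and 7342 without and 3012 and 2496 with ATRA, a change of -1.28 that did not pass (adjusted p = 0.171). The keratin KRT15 of the same list read 11064 and 14291 without and 14471 and 13993 with ATRA (change 0.18, adjusted p = 0.672). Of 34 luminal genes 2 rose and 0 fell, with a median of 0.03 that was 0.20 without untreated replicate 1 and -0.08 without replicate 2, when 2 fell. They were ALDH1A3 and FOXA1, the pioneer factor of luminal cells, which rose by 1.86 (adjusted p = 0.0145), from 89.0 and 104.9 to 343.6 and 358.9. The luminal keratins KRT18 and KRT19 had changes of -0.15 and 0.42 (adjusted p = 0.646 and 0.586). ESR1, the estrogen receptor, read 166.6 and 262.5 without and 272.8 and 348.1 with ATRA (change 0.56, adjusted p = 0.329).

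Squamous differentiation genes went both ways. Of 41 measured, 6 rose and 5 fell (8 fell without untreated replicate 2). The small proline-rich protein SPRR1A, a precursor of the cornified envelope, fell by 2.54 on the log2 scale (adjusted p = 0.00734), from 534.0 and 438.5 to 94.9 and 72.7, and SPRR1B and CSTA were also among the falls with CLCA2. GRHL3, a transcription factor of the epidermal barrier, fell by 1.96 (adjusted p = 0.00836), from 123.4 and 81.0 to 23.3 and 28.5. KRT13, the keratin of non-cornified mucosa, moved against these and rose by 2.87 (SE 0.21, adjusted p = 0.00239), from 39.9 and 36.1 to 320.2 and 241.7. It lay 2.05 above MCF-10F (adjusted p = 0.00695). The other risers were TGM5, SCEL, KLK6, KLK10 and KRT4. KLK10 did not pass without untreated replicate 2 (0.0772), and the other 10 calls held when either untreated array was left out. KRT13 passed when either array at 10 μM was left out, and KRT14, KRT16, ITGA6, ACTA2, TRIM29, SPRR1A, GRHL3 and FOXA1 then had adjusted p-values from 0.0531 to 0.251.

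In cell junctions 3 of 36 measured genes rose and 5 fell, with a median of -0.36, and 10 fell without untreated replicate 2. Falls were found in desmosomes, with DSC3 joined by the plaque proteins JUP (change -1.47, adjusted p = 0.0129) and DSP (change -1.13, adjusted p = 0.0137), and in the gap junction connexin GJB5, which fell by 1.11 on the log2 scale (adjusted p = 0.0109), from 172.1 and 157.3 to 75.0 and 77.2. The tight junction claudin CLDN23 rose by 1.55 (adjusted p = 0.00833), from 20.6 and 16.5 to 53.3 and 54.6. MARVELD2, of tricellular tight junctions, also rose (0.82, adjusted p = 0.0155), and cingulin (CGN) fell (change -0.72, adjusted p = 0.0356, 0.0682 without untreated replicate 1). CDH1 had a change of -0.30 (adjusted p = 0.251). CDH2, N-cadherin, usually a mesenchymal cadherin, rose by 2.37 (SE 0.30, adjusted p = 0.00975), from 43.8 and 45.9 to 233.9 and 231.2.

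CDH2 was the single riser among mesenchymal genes. Of 22 measured 1 rose, 3 fell and 18 did not pass. AXL, a receptor tyrosine kinase of mesenchymal cells, fell by 3.66 on the log2 scale (adjusted p = 0.0182), from 426.7 and 399.6 to 36.1 and 29.4, and the matrix protein tenascin-C (TNC) fell by 2.21 (adjusted p = 0.0406), from 205.8 and 526.8 to 73.4 and 69.2. S100A4, a calcium-binding protein of motile cells, fell by 1.28 (adjusted p = 0.038, 0.0559 without untreated replicate 2). Vimentin (VIM) read 590.5 and 1084 without and 240.5 and 234.5 with ATRA, which did not pass (change -1.75, adjusted p = 0.118). Fibronectin (FN1) was low in the clone in either state, with 61.9 and 55.2 untreated and 98.1 and 68.3 at 10 μM (change 0.48, adjusted p = 0.214), against a mean of 14788 in MCF-10F. Of the 11 junction and mesenchymal genes that passed, DSC3 alone passed when either array at 10 μM was left out, and the others then had adjusted p-values from 0.089 to 0.25.

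Extracellular matrix genes yielded calls in both directions. Of 58 measured 10 fell and 3 rose, with a median of -0.04 that was 0.04 without untreated replicate 1 and -0.26 without replicate 2, and 8 of the falls and 2 of the rises held when either untreated array was left out. THBS2, thrombospondin 2, an inhibitor of angiogenesis, read 200.5 and 174.6 in the untreated clone and 23.9 and 22.2 at 10 μM, and fell by 3.02 on the log2 scale (SE 0.20, adjusted p = 0.00182). LOXL2, a collagen cross-linking oxidase like LOX, fell by 2.25 (adjusted p = 0.00804), from 2010 and 1564 to 492.1 and 281.2. COL4A6, a basement membrane collagen, fell by 1.5 (adjusted p = 0.00459), from 879.3 and 807.7 to 280.5 and 316.3, and the laminin chain LAMB1, a classical retinoid target in embryonal cells, fell by 0.99 (adjusted p = 0.0107), from 2052 and 2219 to 1061 and 1095. The other falls were LOX, COL7A1, COL1A1, BGN, VCAN and TNC, and the rises were COL4A4, LUM and CCN2.

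Of 39 proteases and inhibitors 3 rose and 4 fell. Beside PAPPA, ADAM12, a metalloprotease that sheds EGF-like ligands, rose by 2.43 (SE 0.19, adjusted p = 0.00239), from 218.7 and 275.1 to 1263 and 1392. CST6, cystatin E/M, an inhibitor of lysosomal cysteine proteases whose loss is known from breast carcinoma, rose by 2.39 (SE 0.15, adjusted p = 0.0016), from 367.7 and 326.0 to 1655 and 1987. MMP2, gelatinase A, fell by 2.75 on the log2 scale (adjusted p = 0.00836), from 1389 and 648.0 to 147.9 and 133.5. TIMP3, ADAM8 and PLAU also fell, and 7 fell without untreated replicate 2.

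Hyaluronan synthases moved apart. HAS3 fell by 3.05 on the log2 scale (SE 0.32, adjusted p = 0.00622), from 339.6 and 490.5 to 66.0 and 37.0, and HAS2 rose by 0.99 (adjusted p = 0.0221) at low signals, from 23.6 and 27.9 to 53.9 and 47.99. HS6ST2, a heparan sulfate 6-O-sulfotransferase, rose by 1.28 (adjusted p = 0.0115), and the hyaluronan receptor CD44 had a change of -0.48 (adjusted p = 0.0864). Of the 31 genes of hyaluronan and heparan sulfate measured, 2 rose and 1 fell. Without untreated replicate 1, 3 fell, and without replicate 2, 4 rose and 5 fell. Of the 12 matrix, protease and hyaluronan genes with a call and a value here (LOX included), THBS2, CST6, ADAM12 and PAPPA passed when either array at 10 μM was left out, and the rest then had adjusted p-values from 0.0327 to 0.179. Of 20 integrin subunits 1 rose (ITGB7, by 0.90, adjusted p = 0.0259, 0.0552 without untreated replicate 1) and 1 fell (ITGA6), with 3 falls without replicate 2.

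Among ligands of the EGF receptor family 3 rose. BTC, betacellulin, read 34.1 and 59.4 in the untreated clone and 472.9 and 417.9 at 10 μM, and rose by 3.30 (SE 0.25, adjusted p = 0.00239). EREG, epiregulin, rose by 2.16 (adjusted p = 0.031, 0.0768 without untreated replicate 1), from 333.9 and 412.6 to 1655 and 1661, and TGFA, transforming growth factor α, by 0.83 (adjusted p = 0.0303), from 944.8 and 797.9 to 1711 and 1394. LRIG1, which promotes degradation of these receptors, fell by 1.81 on the log2 scale (adjusted p = 0.00904), from 389.1 and 347.1 to 90.3 and 122.0. In all, 6 of 36 genes of ERBB and ERK signalling rose and 2 fell, of which 3 and 2 held when either untreated array was left out, and 11 rose without replicate 2. BTC passed when either array at 10 μM was left out, while CCND1, TGFA, EREG and LRIG1 then had adjusted p-values from 0.0602 to 0.213.

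Receptors of the TGF-β family changed in opposite directions. TGFBR2, the type II receptor that binds the ligand, rose by 1.42 (SE 0.19, adjusted p = 0.0109), from 1290 and 1776 to 4058 and 4050. TGFBR3, the co-receptor betaglycan, fell by 2.32 on the log2 scale (adjusted p = 0.0115), from 322.9 and 226.4 to 54.7 and 53.7. The inhibitory SMAD6 rose by 1.87 (adjusted p = 0.0199), from 46.6 and 60.3 to 193.3 and 194.4, and the ligand TGFB1 fell by 1.24 (adjusted p = 0.0174), from 182.4 and 126.2 to 67.8 and 61.1. Of 41 genes of the pathway 4 rose and 4 fell, the others being TGFB2 and LTBP1 (rose) and SKI and ACVR1B (fell). Without untreated replicate 1, TGFB2 (0.078), SKI (0.0617) and ACVR1B (0.073) did not pass. The counts were 11 rises and 11 falls without replicate 2, and 4 rises and 2 falls without replicate 1. Of 52 Notch and Wnt genes 1 rose, LFNG, a glycosyltransferase that modifies Notch, by 2.02 (adjusted p = 0.0133), from 70.0 and 88.9 to 269.3 and 381.4, and 0 fell. Without untreated replicate 2, 6 rose and 4 fell, and without replicate 1, 3 rose and 0 fell. The Wnt antagonist DKK1 did not pass (change 2.50, adjusted p = 0.0602), with untreated arrays at 683.3 and 166.9 and treated arrays at 1972 and 1857. TGFBR2, TGFBR3, SMAD6, TGFB1 and LFNG did not pass when an array at 10 μM was left out (adjusted p-values from 0.0906 to 0.156).

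Of 67 histone and DNA modifying enzymes 7 rose and 6 fell, of which 2 and 2 held when either untreated array was left out. The rises numbered 4 without untreated replicate 1 and 15 without replicate 2. Beside PRMT6, SETD7, a lysine methyltransferase, rose by 1.02 (adjusted p = 0.0141), from 1051 and 1320 to 2394 and 2386. DNMT3A, a de novo DNA methyltransferase, fell by 1.21 on the log2 scale (adjusted p = 0.0225), from 162.8 and 124.8 to 57.9 and 65.4, and PHF21A, a reader of unmethylated histone H3, fell by 1.62 (adjusted p = 0.017), from 1487 and 999.4 to 344.5 and 455.0. HOX genes, many of which respond to retinoids in embryos, yielded a single call. Of 28 measured 1 rose (2 without untreated replicate 1 and 3 without replicate 2), HOXB6, by 1.60 (adjusted p = 0.0135), from 40.9 and 38.4 to 124.0 and 116.7, and the change of HOXA2 did not pass (1.85, adjusted p = 0.0548). Of 20 clock genes 3 rose (CRY1, NPAS2 and TIMELESS) and 3 fell (CIART, CSNK1D and NR1D2). CRY1, a repressor of the clock, rose by 3.09 (adjusted p = 0.0483), from untreated arrays as far apart as 31.4 and 182.9 to 699.8 and 596.8. NPAS2 did not pass without either untreated array (0.0742 and 0.0669), nor TIMELESS and CSNK1D without replicate 1 (0.0847 and 0.05003). Without replicate 1, 1 clock gene rose, and without replicate 2, 6 fell. When an array at 10 μM was left out none of the chromatin, HOX and clock genes named with a call passed, with adjusted p-values from 0.0933 to 0.265.

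Of 36 genes of the NRF2 pathway 4 rose and 0 fell. TXNRD1, thioredoxin reductase, rose by 0.79 (adjusted p = 0.022), from 2688 and 2883 to 5056 and 4587, and GPX2, a glutathione peroxidase, by 1.71 (adjusted p = 0.0345), from 35.7 and 35.4 to 98.7 and 136.9. GCLM, of glutathione synthesis, and TALDO1, of the pentose phosphate pathway, rose by 0.82 and 0.77. GPX2, GCLM and TALDO1 did not pass without untreated replicate 1 (0.0719, 0.0787 and 0.0751), which left 1 rise, and 1 member fell when either untreated array was left out. In lipid metabolism 3 of 38 genes rose and 1 fell: the fatty acid elongases ELOVL6 (1.24, adjusted p = 0.0385) and ELOVL7 (0.66, adjusted p = 0.0449, 0.0895 without untreated replicate 1) and SOAT1, which esterifies cholesterol (0.93, adjusted p = 0.0278) rose, and MYLIP, which degrades the LDL receptor, fell by 2.44 on the log2 scale (adjusted p = 0.0186), from 409.6 and 434.9 to 79.7 and 76.2. In this list 6 rose without untreated replicate 2 and 2 fell without replicate 1. When an array at 10 μM was left out these 8 had adjusted p-values from 0.127 to 0.238.

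Of 31 p53 targets 3 rose and 2 fell (4 fell without untreated replicate 2). Beside TIGAR, the quinone reductase TP53I3 rose by 1.74 (adjusted p = 0.0152), from 299.1 and 279.1 to 867.0 and 1074, and TP53I11 by 0.76 (adjusted p = 0.0473, 0.0564 without untreated replicate 2). STEAP3, an iron reductase, fell by 2.44 on the log2 scale (adjusted p = 0.0044), from 1266 and 1229 to 243.3 and 216.8, and SPATA18 fell by 1.49 (adjusted p = 0.0253). Of 43 genes of the unfolded protein and amino acid stress responses 3 rose and 5 fell, with 9 rises without untreated replicate 2 and 8 falls without replicate 1. The sensor kinase ERN1 (IRE1α) fell by 2.24 (adjusted p = 0.0141), from 802.0 and 717.7 to 147.0 and 174.5, DDIT3 (CHOP) fell by 1.30 (adjusted p = 0.00541), from 605.5 and 594.1 to 242.9 and 244.7, and the co-chaperone DNAJB9 fell by 1.21 (adjusted p = 0.0115). CRELD2, an endoplasmic reticulum protein, rose by 1.41 (adjusted p = 0.0149). When an array at 10 μM was left out these 9 genes, TIGAR included, had adjusted p-values from 0.0591 to 0.271.

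Of 52 genes of lysosomes and autophagy 4 rose and 7 fell, all of which held when either untreated array was left out, and 16 fell without replicate 2. SGSH, a sulfamidase that degrades heparan sulfate, fell by 1.77 on the log2 scale (adjusted p = 0.00547), from 122.8 and 114.0 to 39.7 and 30.3, ATG14, of autophagosome formation, fell by 1.77 (adjusted p = 0.00797), from 1038 and 816.7 to 268.3 and 270.1, and ACP2, a lysosomal phosphatase, rose by 1.44 (adjusted p = 0.0107), from 60.3 and 68.8 to 164.5 and 184.6. With GPNMB these 4 had adjusted p-values from 0.046 to 0.103 when an array at 10 μM was left out, and each missed the threshold in at least 1 of those 2 fits. Of 20 genes of the aryl hydrocarbon receptor pathway 1 rose (EREG) and 2 fell, ARNT (change -0.96, adjusted p = 0.0158) and ALDH3A2 (change -1.30, adjusted p = 0.0202), with 2 rises and 4 falls without untreated replicate 2. Its target CYP1B1 read 5927 and 3870 without and 2290 and 2657 with ATRA (change -0.96, adjusted p = 0.0581). Of 28 estrogen-related genes 2 rose (STS and NRIP1) and 1 fell (CA12), with 0 falls without untreated replicate 1 and 2 without replicate 2.

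Markers of other cell types were read in the same way. The summed signal of 14 fibroblast markers was 1850 and 2031 without and 1101 and 1190 with ATRA, that of 12 endothelial markers 495.7 and 596.8 without and 1161 and 1544 with, that of 11 leukocyte markers 737.9 and 536.0 without and 1069 and 1097 with, and that of 9 adipocyte markers 685.6 and 607.3 without and 933.5 and 975.3 with ATRA. The endothelial and leukocyte sums rested on PECAM1 (132.2 and 267.3 to 820.7 and 1183) and CD14 (149.3 and 108.3 to 571.6 and 660.6), neither of which passed (adjusted p = 0.206 and 0.171). The endothelial cadherin CDH5 (14.1 and 14.9 to 17.3 and 22.7) and the B-cell marker MS4A1 (29.3 and 27.9 to 28.1 and 22.5) stayed under 30 on all 4 arrays. Other markers did not, such as CLDN5 (65.52 and 53.36 to 54.85 and 64.24) and CD79A (133.2 and 87.85 to 95.32 and 93.75). The clone was grown from 1 colony of an epithelial line, and such levels do not measure other cell types. No endothelial or leukocyte marker passed (1 endothelial marker fell without untreated replicate 2), in fibroblast markers 1 rose (LUM, to no more than 17.9) and 3 fell (FAP, COL1A1 and S100A4), against 2 rises without untreated replicate 1 and 1 fall without replicate 2, and in adipocyte markers 1 rose, the nuclear receptor PPARG, by 0.81 (adjusted p = 0.0361). In bulk samples of such a culture, fewer cells that express a gene and less RNA per cell cannot be told apart. Of 12 housekeeping genes used as a check of scaling 1 rose, the transferrin receptor TFRC, by 1.10 (adjusted p = 0.0228), and the list had a median of 0.18 and 3 rises without untreated replicate 2.

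Against MCF-10F, 150 genes were higher at 10 μM (0.759%) and 357 lower (1.81%). The 2 MCF-10F arrays also lay apart, by 0.44 in root mean square, with 3.48% of probe sets differing by more than 2-fold. Of the 183 genes named by the rules given with the processing, 12 were above and 32 below MCF-10F. With signals under 16 set to 16, 33 of these 44 calls were lost. Among the 12 largest rises NRAD1 lay above MCF-10F and none below, and among the 12 largest falls CLCA2, KRT14, DSC3, KRT16 and RAB38 lay below. The other genes of these 2 sets did not pass against MCF-10F, which does not show equal levels. PAPPA, for example, had a mean of 1030 in MCF-10F and 571.5 at 10 μM (difference -0.85, 95% interval -1.39 to -0.31, adjusted p = 0.141). DHRS3 and ESR1, which had not passed against the untreated clone, lay 3.08 (adjusted p = 0.0182) and 3.12 (adjusted p = 0.0044) above MCF-10F, and FN1 lay below it (difference -7.50, adjusted p = 3.68e-05).

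The 1 μM arrays were compared with the same untreated arrays, so both doses share their controls and their values are set side by side only. Mean signals at 1 μM were 503.3 for NRAD1, 450.9 for FRMD3, 354.8 for STS, 1749 for CYP26B1, 9.78 for CLCA2, 115.5 for DSC3 and 743.3 for MCM10. Between 10 μM and 1 μM no gene passed in limma (0%), and 334 of 19775 had an unadjusted p under 0.05. That is fewer than such a threshold passes on average when no gene differs. For the 12 largest rises the difference between the doses ran from -0.26 (ANO1) to 0.39 (PSCA), and for the 12 largest falls from -2.05 (KRT14) to 0.31 (TPRG1). The difference was -1.27 for DSC3 (95% interval -1.78 to -0.75, unadjusted p = 0.000596, adjusted p = 1). DSC3 had the lowest unadjusted p of these falls, and its interval is not corrected for that choice. The 2 doses are shown neither to differ nor to give the same level.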

How the data were processed

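RNA of the 8 samples was hybridized to 8 Affymetrix U133 Plus 2.0 arrays. The values used are signal intensities on a linear scale as deposited, scaled between arrays by the authors. The study describes 2 ways of computing signals, MAS 5.0 and Iterative Plier 16, without tying either to these values. Scaling hides a change of all genes together. Samples were grouped by title. Log2 intensities were fitted in limma 3.58.1 (R 4.3.3, lmFit and eBayes) with 1 mean per group over all 8 arrays, and p was adjusted over 54613 probe sets. The number of arrays limits the precision. Genes named were, by rule, the 12 largest changes in each direction that also passed when either untreated array was left out (arrays not overlapping, mean signal of at least 100 in the brighter group), up to 4 members of each list by p and every called member of lists with 6 calls or fewer, listed retinoid genes, and 14 background genes. The members and lists were chosen with earlier results of these data known. The fit was tested on simulated data. Alternatives were samples in the fit, scaling, floor, dim probe sets, prior, array weights, replicate block, probe set choice, adjustment, threshold and each array left out. Other members named beside these were chosen after their values were seen.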

Additional observations from a re-analysis of the deposited data

How the results depend on the processing

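With 780 rises and 769 falls as reported, 2 fits gave far fewer: 194 and 212 with only the 4 arrays compared, and 231 and 264 with signals under 16 set to 16. Calls lost with that floor were not only those of genes near background. NDRG1, far above 16 on every array, kept its change of -4.03, while its adjusted p went from 0.0121 to 0.0783. Array weights gave 593 and 501, and a fold of 2 beside the adjusted p gave 535 and 507. With 1 array left out the rises ran from 22 to 2450 and the falls from 28 to 1573, with the low counts when a 10 μM array was missing and the high ones without trMCF clone 11 replicate 2. Such a fit takes no spread from the group with the missing array, so these counts differ in their error as well as in their arrays. The cause was otherwise not tested. Quantile normalization, leaving out the dimmest probe sets, a trended prior, other probe sets of a gene, adjustment over genes alone and the study's fold and unadjusted p kept both counts within 1.5 times. The labels number the arrays without saying that a number pairs samples (correlation of the differences 0.117 between the 2 groups), and the replicate block gave 676 and 728.

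The 5 receptor and proliferation genes, none of them called, that turned in direction were RARA, RARB, RARG, RXRG and MKI67. RARA was 0.19 without trMCF clone 11 replicate 1 (-0.34 without replicate 2) and 0.05 without 10 μM replicate 2. RARB was -0.14 without trMCF clone 11 replicate 2 and 0.58 without replicate 1. RARG was 0.33 and -0.39, RXRG 0.18 and -0.20, and MKI67 -0.23 and 0.85 without trMCF clone 11 replicate 1 and replicate 2. RXRG was also 0.0060 after quantile normalization and 0.08 without 10 μM replicate 1. Of the 183 named genes, 134 had a call to lose. Of these 134, 81 lost it with the floor of 16 and 54 with the 4 arrays alone. Without trMCF clone 11 replicate 1 and replicate 2, 15 and 6 lost it. Without 10 μM replicate 1 and replicate 2, 112 and 113 lost it. The largest changes among these genes had been selected for passing without either untreated array. The losses of 15 and 6 are therefore partly fixed by that selection. The comparison with MCF-10F could not be made with the 4 arrays alone, which hold no MCF-10F. Of its 44 calls among the named genes, 33 were lost with the floor of 16 and 11 kept. Having 2 arrays a group limits what these data can show, most of all for genes near background.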
